A study of Mus musculus with 8 samples.

Results

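Collagens, laminins and the proteins that build or bind the extracellular matrix were examined in cells of the primitive erythroid lineage, the nucleated red cells of the early mouse embryo, cut from yolk sac sections by laser capture. A gene belonged to the group when the single symbol of its probe set began as a collagen chain (Col followed by a number, a and a number) or a laminin chain (Lama, Lamb or Lamc), or was 1 of 18 named matrix genes such as Sparc, Fn1, Lum, Timp1 and Plod2. Where a gene had several probe sets, the brightest on average over the 8 arrays represented it. This gave 63 of the 12393 genes measured, namely 36 collagen chains, 10 laminin chains and 17 of the named genes. For the other named gene, Fbn1, no probe set with a single symbol was in the table analysed here.

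Collagens are trimers of chains that are hydroxylated and folded in the endoplasmic reticulum before secretion. Fibrillar collagens form the fibres of connective tissue, whereas collagen IV and the laminins, joined by nidogen, form the sheets of basement membranes. In the yolk sac such sheets lie under the endoderm and beside the vessels, and mesenchymal cells make fibrillar matrix. The parietal endoderm, outside the visceral yolk sac, is known for making laminin, collagen IV and Sparc in large amounts. Red cell precursors touch this matrix, chiefly through integrins, but are not known as a main source of it.

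There were 4 arrays labelled KLF2-/- (KO arrays 11, 12, 13 and 14) and 4 labelled wild type FVB/N (WT arrays 3, 5, 7 and 9), all from embryonic day 9.5. Values below are in that order of arrays within each group. Every replicate pooled 2 to 4 yolk sacs from 2 litters, and RNA was amplified in 2 cycles with an oligo-dT primer. For the KLF2 line no strain or allele was stated, so that genotype and strain cannot be told apart. The stated ranges of input differed too, with 30 to 80 slides and 10 to 20 ng of RNA for KO arrays. For WT arrays they were 12 to 50 slides and 10 to 39 ng, and a cell number (3600 to 4400) was given for KO arrays only. These cannot be told apart from genotype either. The labels and the design text disagree on whether the dams were KLF2-/- or KLF2+/-. All values are log2 expression values per probe set as the authors deposited them, and differences are KO minus WT on that scale.

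Hbb-bh1, an embryonic beta-like globin that marks these red cell precursors, was at 14.01 to 14.13 in KO arrays and 14.04 to 14.17 in WT arrays. The highest value of any probe set was 14.17, so its narrow range does not show that the share of red cells was even. The 9 erythroid markers measured deviated from their own means by -0.82 to 0.51 on average in KO arrays. In WT arrays this was -0.49 to 0.43. Klf2 itself measured 5.38, 5.77, 7.15 and 5.89 in KO arrays (6.05 ± 0.77, SD, n = 4) and 5.18, 5.28, 4.97 and 5.70 in WT arrays (5.28 ± 0.31). It was not lower in the arrays labelled KLF2-/-, but whether its probe set lies inside the deleted stretch was not stated, so it cannot check the labels. Markers of other yolk sac cells were present too. Those of visceral endoderm, the yolk sac's outer epithelium, were measured for 12 of 13 genes, with Ttr at 10.60 to 13.37 in KO arrays and 12.87 to 13.13 in WT arrays. Their summed level, with values taken out of log2, ran from 5441 to 37410 in KO arrays and from 22080 to 28630 in WT arrays. For 14 mesenchyme markers the sums were 1750 to 3324 in KO arrays and 2569 to 3232 in WT arrays, and for 13 endothelium markers 881.2 to 1581 in KO arrays and 791.8 to 1136 in WT arrays. In bulk captures, more or fewer cells of a type and more or less RNA per cell cannot be told apart.

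No matrix gene passed the test between the groups. Of 63 genes, 0 had an adjusted p under 0.05 by limma (a moderated linear model, with Benjamini-Hochberg adjustment over all genes), against 0% of all genes, and the lowest adjusted p among them was 0.905. At an unadjusted p under 0.05, 4 genes were higher in KO arrays (Sparc, Col14a1, Lama4 and Col9a3), which is 6.35% of the 63 against 3.33% of all genes. Lower in KO arrays by the same limit was Col13a1 alone, 1.59% against 1.47% of all genes. No array of a group lay within the range of the other group for 1 gene with KO higher (Col9a3, 1.59% against 1.55% of all genes) and 1 with KO lower (Col13a1, 1.59% against 1.07%). The median difference was 0.06 over the 63 genes and 0.02 over all genes, and 39 of the 63 (61.9%) lay above 0, against 53.4% of all genes.

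The count of genes at the unadjusted limit turned on single arrays. Without KO array 14 it was 13 higher in KO arrays (20.6%, against 5.58% of all genes), which added Serpinh1, Dcn, Lum, Postn, Igfbp3, Col1a2, Col9a1, P4ha1 and P4ha2 to the 4 above. Without WT arrays 3 and 5 together it was 0 (against 1.02% of all genes). Without KO array 12 (2.41% of all genes) or without WT array 3 (1.7%) it was 1, namely Col9a3. It was 2 without KO array 11 (2.61%), KO array 13 (4.06%) or WT array 5 (1.73%). Of the 29 genes given below with every array, the difference turned sign or moved by over 1.5 times for 19 without KO array 14, for 19 without KO array 12 and for 15 without WT array 3. The 5 genes that did neither, whichever single array was left out, were Sparc, Lama4, Col14a1, Col9a3 and Col13a1. They are the same 5 genes that were past the unadjusted limit on these arrays, so this adds no independent support for them. None of these fits gave an adjusted p under 0.05 for any of the 63 genes.

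**Figure D1:**
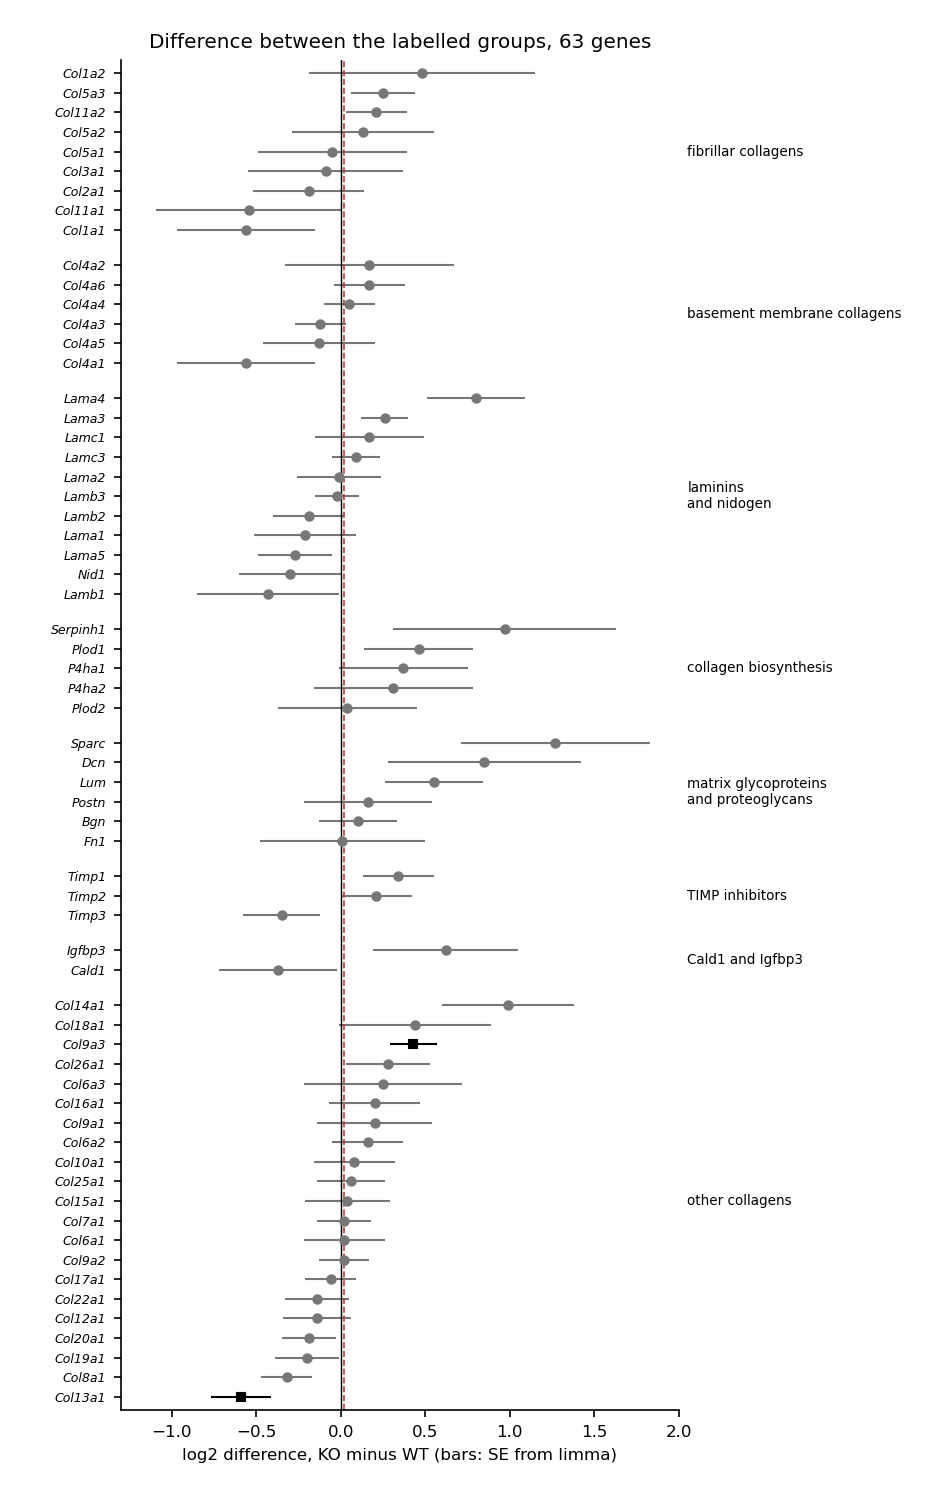
Log2 difference KO minus WT for each of the 63 genes (points, n = 4 arrays per group) with limma's SE (bars), sorted within roles, where black squares mark genes whose groups did not overlap and the dashed line is the median difference of all genes, 0.02. The points run from -0.59 for Col13a1 to 1.27 for Sparc, and the genes of collagen biosynthesis and the matrix glycoproteins and proteoglycans all lie above 0.

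These genes varied widely between arrays of both groups. Their values covered a median of 1.34 log2 units from the lowest to the highest array, against 0.87 for all genes, and 19 of the 63 covered more than 2 units, against 6.18% of all genes. The spread lay with 38 genes whose mean reached the median of all gene means, 5.61. Of these 38, 19 had their lowest value in KO array 14 (50.0%, against 22.7% of all genes at that level) and 11 had it in WT array 3 (28.9%, against 14.7%). The highest value was in KO array 12 for 18 (47.4%, against 21.8%) and in KO array 13 for 12 (31.6%, against 13.4%). Most of these genes thus peaked in KO array 12 or 13, while another KO array was the lowest for 19 of them. The mean deviation of the 38 genes from their own means was 0.03, 0.57, 0.50 and -0.82 in KO arrays and -0.47, -0.10, 0.18 and 0.11 in WT arrays. The other 25 genes, below that level, deviated by -0.11 to 0.14 on average in KO arrays and by -0.06 to 0.06 in WT arrays.

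**Figure D2:**
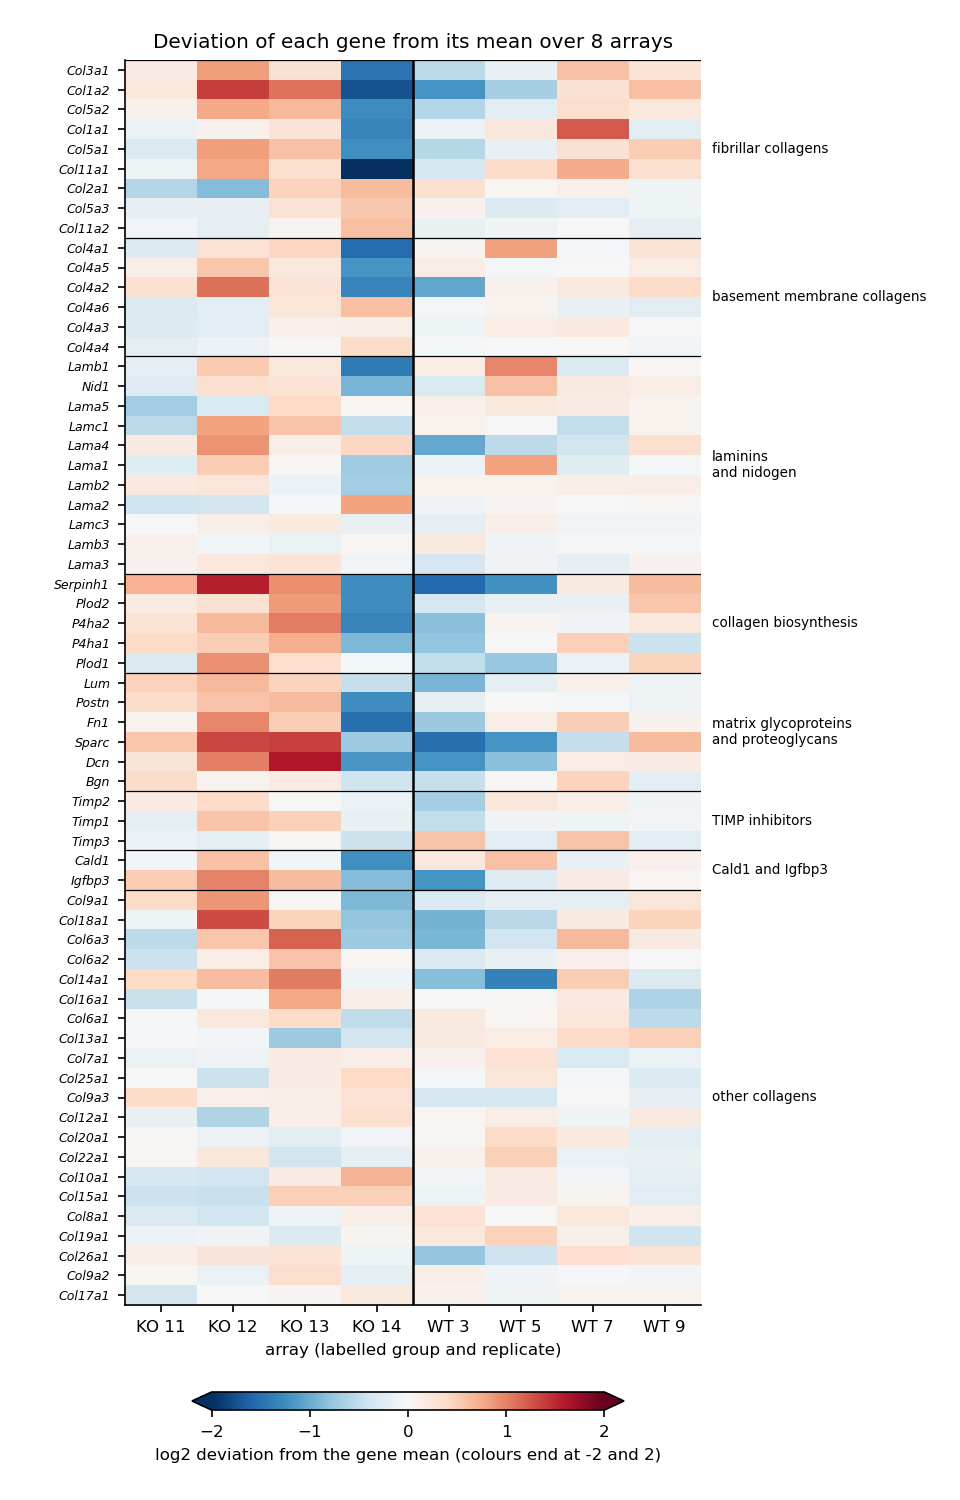
Deviation of each of the 63 genes (rows, grouped by role and sorted by mean value) from its own mean over 8 arrays, in log2 units by colour, with KO arrays left and WT arrays right of the line. KO array 14 is the lowest column for 19 of the 38 brighter genes, KO arrays 12 and 13 are often the highest there, and WT array 3 is low for collagen biosynthesis genes, Sparc, Dcn, Lum and Igfbp3.

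Markers of other cell types also varied between these arrays, in some arrays in the direction of the matrix genes and in others not. Visceral endoderm markers deviated by -2.25 in KO array 14 and by 0.64 and 0.92 in KO arrays 12 and 13. Parietal endoderm markers deviated by -0.57, 0.20 and 0.08 in the same arrays. In KO array 11 the 2 lists deviated by -0.26 and -0.16. In WT arrays visceral endoderm markers deviated by -0.01, 0.30, 0.15 and 0.51. Parietal endoderm markers deviated there by -0.03, 0.34, -0.06 and 0.20, so they were highest in WT array 5. Mesenchyme markers deviated by -0.34 in KO array 14 and by 0.30 in WT array 3, where the matrix genes were low. The mean in WT array 3 leaned on 1 marker, Cdh2, at 8.48 there and at 2.87 to 4.09 in the other arrays. The trophoblast and decidua markers that were measured, 6 of 11, deviated by -0.41, -0.78, 0.17 and -0.25 in KO arrays and by 1.39, 1.35, -0.71 and -0.75 in WT arrays, with Prl8a2, a decidual prolactin, at 3.40 to 7.46 in KO arrays, at 10.87 and 11.61 in WT arrays 3 and 5 and at 3.39 and 3.45 in the other WT arrays. Their summed level was 76.35 to 264.5 in KO arrays and 75.35 to 3274 in WT arrays. That of the 9 parietal endoderm markers was 505.0 to 2398 in KO arrays and 1189 to 1887 in WT arrays. The brightest of these 9, Dab2, at 7.93 to 10.93 in KO arrays and 9.68 to 10.53 in WT arrays, weighs most in that sum. Like the visceral endoderm markers, Dab2 was lowest in KO array 14. Whether its signal came from parietal endoderm alone was not tested, so the sum need not measure that cell type. Endothelium markers deviated by 0.19, 0.47, 0.21 and -0.15 in KO arrays and by -0.28, -0.34, -0.28 and 0.17 in WT arrays. Of these 13, 3 (Cldn5, Esam and Sox18) were higher in KO arrays at the unadjusted limit, against 3.33% of all genes. At that limit 0 were lower, against 1.47% of all genes. Erythroid markers deviated by 0.34, -0.07, -0.82 and 0.51 in KO arrays and by -0.49, -0.24, 0.34 and 0.43 in WT arrays. The part of these cells in the results on matrix genes was not tested.

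**Figure D3:**
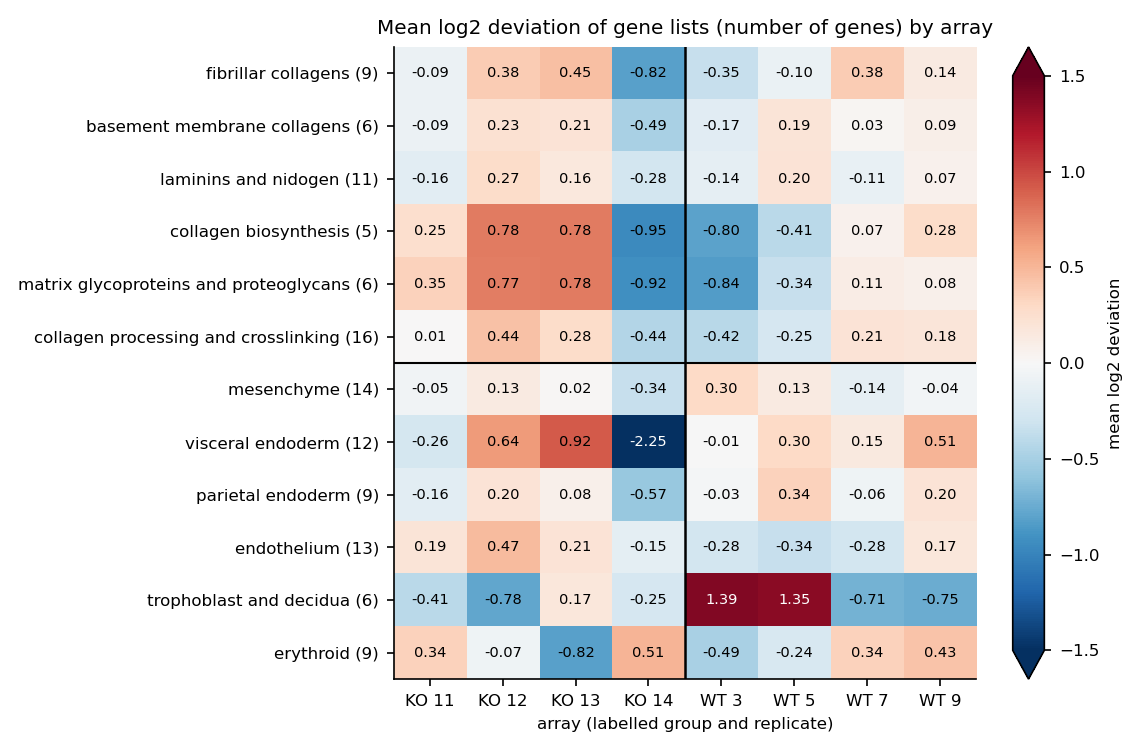
Mean log2 deviation of gene lists (rows, number of measured genes in brackets) from each gene's mean over 8 arrays, with KO arrays left and WT arrays right of the line, matrix roles above and cell type markers below. Collagen biosynthesis genes and matrix glycoproteins and proteoglycans are high in KO arrays 12 and 13 and low in KO array 14 and WT array 3, while visceral endoderm markers reach -2.25 in KO array 14 and trophoblast and decidua markers 1.39 and 1.35 in WT arrays 3 and 5.

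The fibrillar collagens held 9 genes, of which 0 passed the test or the unadjusted limit in either direction, and their median difference was -0.05. Col3a1, the chain of collagen III, measured 11.84, 12.51, 11.97 and 10.20 in KO arrays and 11.13, 11.53, 12.26 and 11.94 in WT arrays, a difference of -0.09 (SE 0.46). Col1a2, the second chain of collagen I, measured 10.52, 11.69, 11.39 and 8.56 in KO arrays against 9.10, 9.64, 10.61 and 10.90 in WT arrays. For both genes KO array 14 was the lowest of all 8 arrays, KO array 12 was the highest, and the groups overlapped. Col5a2, a chain of collagen V, which nucleates fibrils, was at 10.22, 10.87, 10.76 and 8.86 in KO arrays and 9.53, 9.89, 10.47 and 10.32 in WT arrays, again with KO array 14 lowest. Col1a2 differed by 0.48 (SE 0.67) and Col5a2 by 0.13 (SE 0.42). Col1a1, the main chain of collagen I, and Col11a1 of collagen XI, both chosen after their values were seen, differed by -0.56 (SE 0.41) and -0.54 (SE 0.55). The remaining 4 genes, Col5a1, Col2a1, Col5a3 and Col11a2, differed by -0.19 to 0.25. Without KO array 14 the difference of Col3a1 was 0.39 and that of Col1a2 1.14 (unadjusted p under 0.05, adjusted p = 0.620, limma), and without WT arrays 3 and 5 they were -0.47 and -0.22.

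Collagen biosynthesis genes all lay above 0, with a median difference of 0.37 over 5 genes and 0 past the unadjusted limit. That median was 0.73 without KO array 14, 0.17 without WT array 3 and 0.07 without WT arrays 3 and 5. Serpinh1 encodes the chaperone that binds the collagen triple helix in the endoplasmic reticulum. It measured 11.19, 12.06, 11.43 and 9.26 in KO arrays, against 8.95, 9.29, 10.69 and 11.14 in WT arrays, where array 3 was the lowest of all and array 5 lay beside KO array 14. Its difference was 0.97 (SE 0.66), a 1.95-fold higher geometric mean in KO arrays (exact permutation p = 0.200, adjusted p = 0.907 by limma). That difference was 1.54 without KO array 14 and 0.07 without WT arrays 3 and 5. Plod2, a lysyl hydroxylase that shapes collagen crosslinks, was at 7.74, 7.87, 8.43 and 6.33 in KO arrays and 7.22, 7.43, 7.43 and 8.12 in WT arrays. P4ha2, an alpha subunit of prolyl 4-hydroxylase, was at 6.81, 7.17, 7.55 and 5.19 in KO arrays and 5.69, 6.59, 6.46 and 6.74 in WT arrays. In both, KO array 13 was highest and KO array 14 lowest, and the differences were 0.04 (SE 0.41) and 0.31 (SE 0.47). Leaving out 1 array moved Plod2 over -0.24 to 0.46 and P4ha2 over 0.02 to 0.81. The related P4ha1 and Plod1 differed by 0.37 (SE 0.38) and 0.46 (SE 0.32).

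The matrix glycoproteins and proteoglycans also all lay above 0, with a median difference of 0.35 over 6 genes and 1 past the unadjusted limit (against 3.33% of all genes with KO higher). That median was 0.70 without KO array 14 and 0.23 without WT array 3. Sparc, a secreted protein that binds collagen and calcium, measured 9.63, 10.41, 10.44 and 8.35 in KO arrays, against 7.56, 7.90, 8.59 and 9.71 in WT arrays. KO arrays 12 and 13 were the highest, but KO array 14 lay below WT arrays 7 and 9, so the groups overlapped. Its mean was 2.41-fold higher in KO arrays (9.71 ± 0.98 in KO arrays and 8.44 ± 0.95 in WT arrays, SD, n = 4 each), a difference of 1.27 (SE 0.56) with an unadjusted limma p of 0.0489, an adjusted p of 0.905 and an exact permutation p of 0.143. Without KO array 14 the difference was 1.72, and without WT arrays 3 and 5 it was 0.56. Lum, a small proteoglycan that spaces collagen fibrils, was at 11.24, 11.42, 11.22 and 10.31 in KO arrays and 9.85, 10.58, 10.87 and 10.70 in WT arrays, with WT array 3 the lowest. Dcn, a related proteoglycan and the neighbour of Lum on chromosome 10, was at 8.08, 8.84, 9.43 and 6.67 in KO arrays and 6.64, 6.99, 7.98 and 8.0 in WT arrays (chosen after its values were seen). Lum and Dcn differed by 0.55 (SE 0.29) and 0.85 (SE 0.57), and in each the 3 KO arrays other than 14 lay above all WT arrays. Without WT array 3 Lum differed by 0.33, and Dcn differed by 1.38 without KO array 14 and by 0.46 without KO array 13.

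Postn and Fn1 were lowest in KO array 14. Postn, an adhesion protein of collagen-rich tissue, measured 10.56, 10.77, 10.82 and 8.95 in KO arrays, against 10, 10.21, 10.16 and 10.09 in WT arrays, which lay between KO array 14 and the other KO arrays. Fn1, fibronectin, the ligand of several integrins, was at 10.24, 11.14, 10.66 and 8.66 in KO arrays and 9.43, 10.31, 10.66 and 10.25 in WT arrays. The differences were 0.16 (SE 0.38) and 0.01 (SE 0.49), and without KO array 14 they were 0.60 and 0.52. Bgn, a proteoglycan on the X chromosome, differed by 0.10 (SE 0.23).

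**Figure D4:**
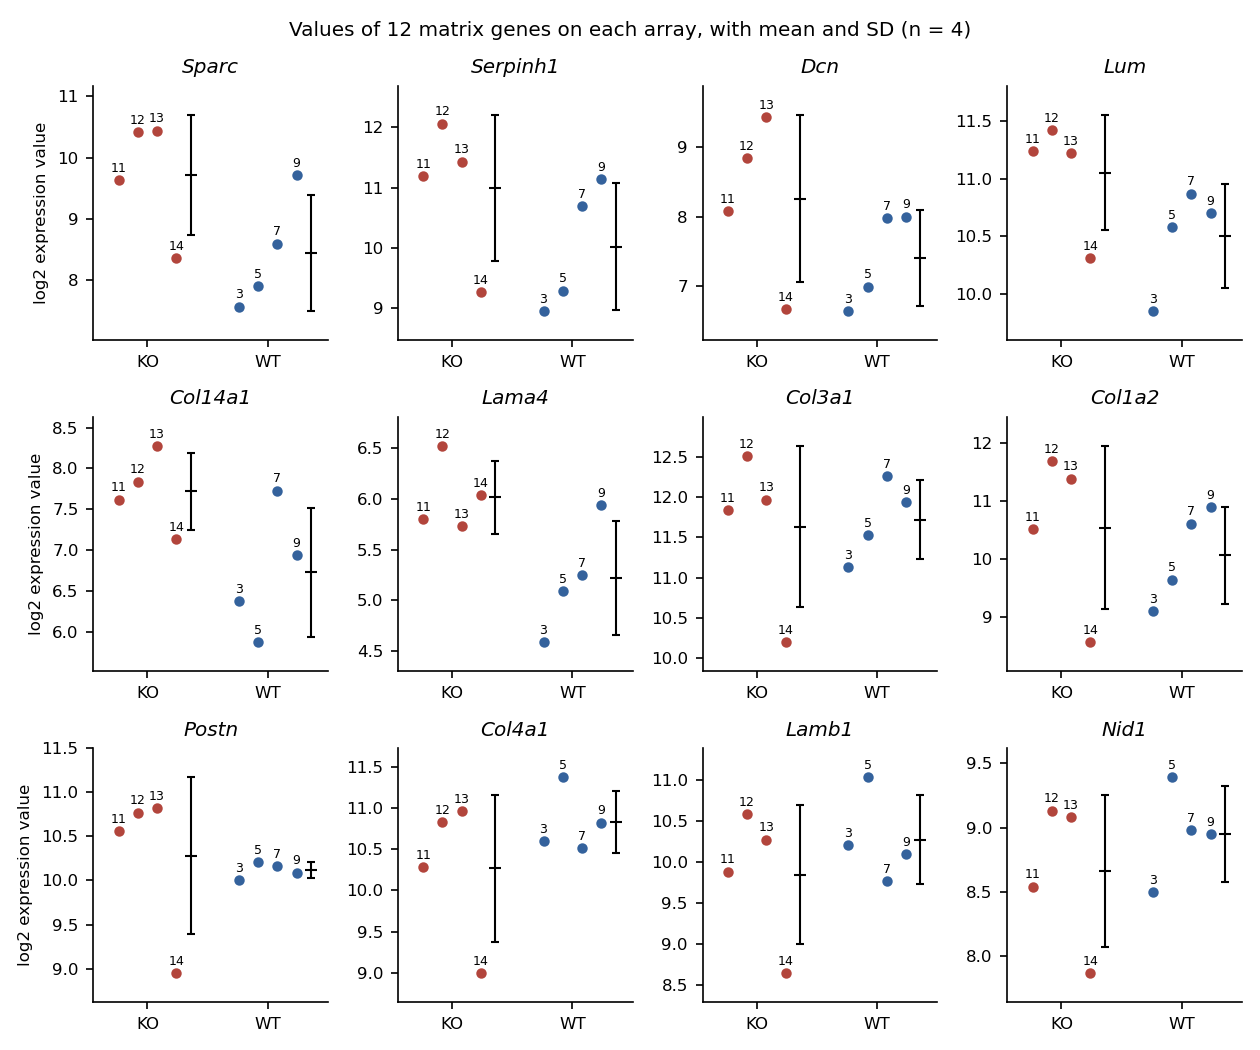
Log2 values of 12 matrix genes on the 4 KO arrays (left in each panel) and the 4 WT arrays (right), numbered by replicate, with mean and SD beside them and a separate vertical scale per gene. KO array 14 is the lowest of all 8 arrays for Col3a1, Col1a2, Postn, Col4a1, Lamb1 and Nid1, and WT array 3 is the lowest for Sparc, Serpinh1, Dcn, Lum and Lama4.

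The promoter windows of 4 genes are shown because these genes carry the contrasts above and below: Sparc and Serpinh1 with the largest differences among glycoproteins and biosynthesis genes, Col1a2 with probe sets of opposite sign, and Col4a2, which shares its start region with Col4a1. Each runs from 250 bases before to 50 bases after the gene's start in RefSeq on GRCm38.p6, 5′ to 3′ on the gene's strand. Capitals mark matches to CCNCNCCC on either strand, a pattern of the kind that KLF factors bind.
Sparc, chr11:55420031-55420330, minus strand: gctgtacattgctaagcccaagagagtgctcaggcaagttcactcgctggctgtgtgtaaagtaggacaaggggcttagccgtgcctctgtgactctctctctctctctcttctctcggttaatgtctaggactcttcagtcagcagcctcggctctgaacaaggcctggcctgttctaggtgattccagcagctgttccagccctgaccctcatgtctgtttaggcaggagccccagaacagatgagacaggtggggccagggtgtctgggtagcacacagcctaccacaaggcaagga
Serpinh1, chr7:99353190-99353489, minus strand: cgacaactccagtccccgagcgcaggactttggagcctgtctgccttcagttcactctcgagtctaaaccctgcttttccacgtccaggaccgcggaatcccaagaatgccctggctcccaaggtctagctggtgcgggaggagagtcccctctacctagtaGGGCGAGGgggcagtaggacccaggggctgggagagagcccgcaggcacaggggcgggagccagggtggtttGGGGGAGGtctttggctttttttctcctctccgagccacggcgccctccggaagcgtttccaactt
Col1a2, chr6:4505368-4505667, plus strand: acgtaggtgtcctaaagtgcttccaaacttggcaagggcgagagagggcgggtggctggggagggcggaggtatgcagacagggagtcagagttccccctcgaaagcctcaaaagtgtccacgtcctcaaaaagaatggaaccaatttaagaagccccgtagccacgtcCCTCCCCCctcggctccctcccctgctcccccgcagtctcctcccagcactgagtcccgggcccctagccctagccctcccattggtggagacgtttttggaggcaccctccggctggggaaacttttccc
Col4a2, chr8:11312555-11312854, plus strand: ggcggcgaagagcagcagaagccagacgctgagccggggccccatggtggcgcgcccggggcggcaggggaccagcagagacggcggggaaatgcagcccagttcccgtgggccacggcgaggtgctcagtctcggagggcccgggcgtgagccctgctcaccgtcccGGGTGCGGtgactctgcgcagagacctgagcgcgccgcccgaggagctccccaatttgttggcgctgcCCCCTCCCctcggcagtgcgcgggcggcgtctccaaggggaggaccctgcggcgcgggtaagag
There were 0 matches in the Sparc window, 2 in that of Serpinh1, 1 in that of Col1a2 and 2 in that of Col4a2.

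A promoter window was found for 45 of the 63 genes, and the first listed was used for each. CCNCNCCC occurred in 35 of the 45 (77.8%), against 65.9% of the windows of all 9887 genes on the array that had one. The pattern CCAAT, searched on both strands and known from the proximal promoters of both collagen I genes, occurred in 17 (37.8%), against 38.1%. TATAAA on either strand occurred in 7 (15.6%), against 10.1%. The searches do not exclude each other, and a match is a description of the letters only. The windows had a median GC content of 61.0%, against 59.3% for all genes.

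Basement membrane collagens had a median difference of -0.04 over 6 genes, with 0 past the unadjusted limit in either direction. Col4a1 and Col4a2 encode the chains of the most widespread collagen IV and start head to head, so that their promoter windows share 78 bases. Col4a1 measured 10.28, 10.83, 10.96 and 9.0 in KO arrays, against 10.60, 11.37, 10.51 and 10.82 in WT arrays, where array 5 was the highest of all. Col4a2 was at 7.25, 8.05, 7.23 and 5.62 in KO arrays and 5.91, 7.06, 7.15 and 7.34 in WT arrays, where array 3 was the lowest WT array. Both were lowest in KO array 14, but in WT array 3 Col4a1 was 0.06 above and Col4a2 1.04 below its own mean, and the differences were -0.56 (SE 0.41) for Col4a1 and 0.17 (SE 0.50) for Col4a2. Without KO array 14 they were -0.13 and 0.65. Col4a5, an X-linked collagen IV chain, was at 7.78, 8.20, 7.85 and 6.46 in KO arrays and 7.79, 7.62, 7.63 and 7.79 in WT arrays, which hardly varied. The differences of Col4a5, Col4a3, Col4a4 and Col4a6 lay between -0.13 and 0.17.

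Laminins and nidogen had a median difference of -0.02 over 11 genes, 1 of them higher past the unadjusted limit and 0 lower (3.33% and 1.47% of all genes). Lama4, a laminin alpha chain of vessel and muscle basement membranes, measured 5.80, 6.52, 5.73 and 6.04 in KO arrays, against 4.59, 5.09, 5.25 and 5.94 in WT arrays. All KO arrays lay above WT arrays 3, 5 and 7, while WT array 9 lay among them. Its difference was 0.80 (SE 0.29), 1.75-fold, with an unadjusted limma p of 0.0209, an adjusted p of 0.905 and an exact permutation p of 0.0857. The other probe set of Lama4, dim at a mean over 8 arrays of 3.55, differed by -0.14. Lamb1, the beta chain of the main embryonic laminin, was at 9.88, 10.58, 10.27 and 8.64 in KO arrays and 10.20, 11.03, 9.76 and 10.09 in WT arrays. Nid1, which links laminin to collagen IV, was at 8.54, 9.13, 9.08 and 7.87 in KO arrays and 8.50, 9.39, 8.98 and 8.95 in WT arrays. For both, as for Col4a1 and Lama1, WT array 5 was the highest of all 8 arrays, and KO array 14 was the lowest.

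Lamb1 and Nid1 differed by -0.43 (SE 0.42) and -0.30 (SE 0.30), and without KO array 14 by -0.03 and -0.04. Without WT array 5 they differed by -0.17 and -0.15. Lama5, an alpha chain of mature epithelial and vessel basement membranes, was at 5.66, 6.05, 6.75 and 6.39 in KO arrays and 6.45, 6.56, 6.52 and 6.42 in WT arrays, where it varied by little, and differed by -0.27 (SE 0.22), or by -0.09 without KO array 11. The remaining laminin genes, Lama1, Lama2, Lama3, Lamb2, Lamb3, Lamc1 and Lamc3, differed by -0.21 to 0.26.

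The other collagens, 21 genes of mixed kinds outside the fibrillar collagens and collagen IV, had a median difference of 0.04. Past the unadjusted limit 2 were higher and 1 lower, against 3.33% and 1.47% of all genes. Col14a1, a collagen on the surface of fibrils, measured 7.62, 7.84, 8.27 and 7.14 in KO arrays, against 6.38, 5.88, 7.73 and 6.94 in WT arrays. WT array 7 lay among the KO arrays, and the mean was 1.98-fold higher in KO arrays, a difference of 0.99 (SE 0.39) with an unadjusted p of 0.0312 and an adjusted p of 0.905 by limma. The other probe set differed by 0.53. Col9a3, a chain of cartilage collagen IX, was at 5.30, 5.04, 5.05 and 5.22 in KO arrays and 4.61, 4.58, 4.94 and 4.77 in WT arrays. These groups did not overlap, and the difference was 0.43 (SE 0.14) (exact permutation p = 0.0286, the smallest that 4 against 4 arrays can give). Col9a3 was dim, with a mean over 8 arrays of 4.94, below the median of all gene means, 5.61. Its other 2 probe sets, whose groups overlapped, differed by 0.58 and 0.01, at means of 4.32 and 2.80. Col13a1, a collagen that spans the cell membrane, was at 5.67, 5.65, 4.98 and 5.34 in KO arrays and 5.88, 5.86, 6.09 and 6.19 in WT arrays. All KO arrays lay below all WT arrays, with a difference of -0.59 (SE 0.18) (exact permutation p = 0.0286, adjusted p = 0.905 by limma), and this was the single probe set of the gene.

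The 3 genes of this role with the highest means were Col9a1, Col18a1 and Col6a3. Col9a1, the partner chain of Col9a3, was at 8.76, 9.26, 8.39 and 7.48 in KO arrays and 8.09, 8.18, 8.19 and 8.62 in WT arrays. Col18a1, the basement membrane collagen from which endostatin is cut, was at 7.90, 9.28, 8.43 and 7.19 in KO arrays and 7.04, 7.42, 8.16 and 8.42 in WT arrays. Col6a3, a chain of the microfibrils that anchor cells to fibres, was at 6.81, 7.88, 8.51 and 6.60 in KO arrays and 6.41, 6.94, 7.97 and 7.50 in WT arrays. They differed by 0.20 (SE 0.34), 0.44 (SE 0.45) and 0.25 (SE 0.47), and all 3 were highest in KO array 12 or 13. Without KO array 14 they differed by 0.53, 0.77 and 0.53, and without KO array 12 by -0.06, 0.08 and 0.10. The remaining 15 genes of the role differed by -0.32 (Col8a1) to 0.28 (Col26a1).

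The tissue inhibitors of metalloproteinases, which block enzymes that cut matrix, had differences of both signs, with a median of 0.21 over 3 genes and 0 past the unadjusted limit. Timp1 was at 6.10, 6.86, 6.77 and 6.15 in KO arrays and 5.81, 6.23, 6.21 and 6.25 in WT arrays. Timp2 was at 7.45, 7.66, 7.27 and 7.17 in KO arrays and 6.60, 7.50, 7.39 and 7.20 in WT arrays. For both genes WT array 3 was the lowest array and KO array 12 the highest. Timp3, the inhibitor that stays bound to the matrix, was at 5.58, 5.53, 5.73 and 5.27 in KO arrays and 6.27, 5.50, 6.27 and 5.48 in WT arrays, where arrays 3 and 7 were the highest of all. The differences were 0.34 (SE 0.21), 0.21 (SE 0.21) and -0.35 (SE 0.23), and the 4 probe sets of Timp3 ran from -0.35 to 0.33. Without WT array 3 the 3 differences were 0.24, 0.02 and -0.22.

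Cald1 and Igfbp3 are not matrix proteins but mark contractile and matrix-making cells. Cald1, caldesmon, an actin-binding protein of smooth muscle and fibroblasts, measured 9.40, 10.04, 9.39 and 8.23 in KO arrays, against 9.66, 10.04, 9.31 and 9.55 in WT arrays. Igfbp3, which binds insulin-like growth factors, was at 7.77, 8.25, 7.89 and 6.39 in KO arrays and 6.06, 7.01, 7.43 and 7.30 in WT arrays. KO array 14 was the lowest of all for Cald1 and WT array 3 the lowest for Igfbp3, and the differences were -0.37 (SE 0.35) and 0.62 (SE 0.43). Without KO array 14 they were -0.03 and 1.02, and without WT array 3 that of Igfbp3 was 0.33.

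Several differences depended on which probe set of a gene was read. The 63 genes had 109 probe sets, and 34 genes had more than 1. Among these 34 the probe sets of a gene spanned a median of 0.36 in their differences, and 18 genes had probe sets of both signs. Some of these probe sets were dim. The second had a mean over 8 arrays of 4.27 for Nid1 and 3.43 for P4ha1, below the median of all gene means, 5.61. For Col1a2 and Col4a1 it was at 9.28 and 8.58. Not every change of sign thus sets 2 bright probe sets against each other. The probe set that represents Sparc, 1416589_at, differed by 1.27, and the other, 1448392_at, by 0.04. The first exceeded the second by 1.98, 1.05, 1.60 and 1.85 in KO arrays and by 0.39, -0.29, 0.38 and 1.07 in WT arrays. For Serpinh1, 1450843_a_at differed by 1.84 and 1456733_x_at by 0.97. The suffix _x_at marks probe sets that may also match other transcripts. The gap between the 2 was 0.91 to 1.06 in KO arrays, against 2.55, 2.23, 1.54 and 1.10 in WT arrays, so the probe sets of this gene ran in parallel in KO arrays and not in WT arrays.

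Cald1 and collagen I showed the same dependence. The third probe set of Cald1, 1424768_at, was at 4.07, 4.10, 4.94 and 4.06 in KO arrays, against 7.54, 6.57, 5.03 and 4.53 in WT arrays, a difference of -1.63, and was highest in the WT arrays with high trophoblast and decidua markers, while 1424770_at differed by 0.05. For collagen I, the probe sets of Col1a1 differed by -0.56 and 0.23 and those of Col1a2 by 0.48 and -0.23. The order of these 2 chains turned only when the second probe set of each was read. The second one of Col1a1 was dim, at a mean over 8 arrays of 4.79, against 10.06 for the first. The probe sets of Col4a1 gave -0.56 and 0.15. Col3a1 (-0.09 and -0.06), Col18a1 (0.44 and 0.37) and Col11a1 (-0.54 and -0.44) gave nearly equal values. The position of each probe set along its transcript was not stated, and its part in these gaps was not tested.

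**Figure D5:**
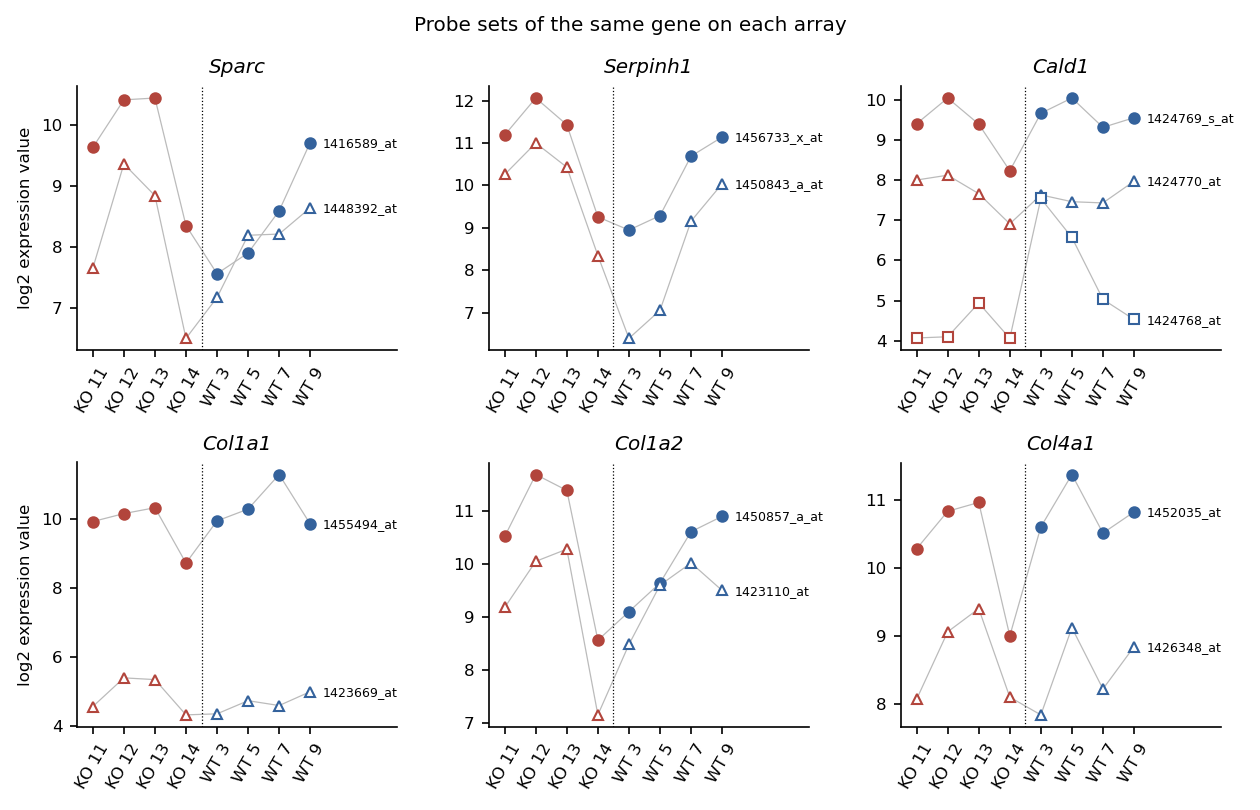
Log2 values of all probe sets of 6 genes on the KO arrays (red, left of the dotted line) and WT arrays (blue, right), where symbols mark probe sets, filled circles are those that represent the gene, and thin lines only join the points of 1 probe set. The Serpinh1 probe sets lie 0.91 to 1.06 apart in KO arrays and up to 2.55 apart in WT array 3, and 1424768_at of Cald1 reaches 7.54 in WT array 3 and no more than 4.94 in KO arrays.

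The authors' deposited table gives an S-score per probe set, whose direction its header does not state. Over all 22626 probe sets the score correlated with the log2 difference (Pearson r = 0.796 across probe sets, which are not independent), and positive scores are taken here to mean higher in KO arrays. In the authors' deposited table, 5 of the 109 probe sets of these genes had a positive score at a q under 0.05, against 0.504% of all probe sets, and 1 had a negative one, against 0.464%. The positive ones were, in the authors' deposited table, those of Serpinh1 (5.97, q = 4.08e-06, and 3.82, q = 0.0209), Sparc (5.61, q = 2.36e-05), Dcn (4.45, q = 0.00285) and Igfbp3 (3.68, q = 0.031). The negative one in the authors' deposited table was 1424768_at of Cald1 (-5.34, q = 7.76e-05). The score and the differences rest on the same 8 arrays, and how the score treats the spread between replicates was not stated. For these same probe sets limma gave adjusted p-values of 0.860 or more over all probe sets.

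Some of these genes are neighbours in the genome or encode chains of 1 protein. Among the 63 genes 7 pairs are next to each other among protein-coding genes, Dcn with Lum, Col3a1 with Col5a2, Col4a1 with Col4a2, Col4a3 with Col4a4, Col4a5 with Col4a6, Col6a1 with Col6a2 and Col9a1 with Col19a1. Dcn and Lum differed by 0.85 and 0.55, whereas Col3a1 and Col5a2 differed by -0.09 and 0.13. The collagen VI chains Col6a1, Col6a2 and Col6a3 differed by 0.02, 0.16 and 0.25, and the laminin chains Lama1, Lamb1 and Lamc1 by -0.21, -0.43 and 0.17. The gaps within these pairs and trimers were not tested.

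Genes that act on the same matrix gave 0 calls at an adjusted p of 0.05 in any of 5 lists. Of the collagen processing and crosslinking list, 16 of 23 genes were measured, 0 were past the unadjusted limit in either direction, and the median difference was 0.13. P3h1 and P3h3, prolyl 3-hydroxylases, differed by 0.49 and 0.30, and the lysyl oxidase relative Loxl3 by 0.27. P4hb, the shared beta subunit of prolyl 4-hydroxylase, was at 10.91 ± 0.64 (SD, n = 4) in KO arrays and 10.51 ± 0.59 in WT arrays. Ppib, a prolyl isomerase of the same compartment, was at 11.36 ± 0.47 in KO arrays and 11.63 ± 0.18 in WT arrays. Collagen biosynthesis genes deviated from their means by 0.25, 0.78, 0.78 and -0.95 in KO arrays and by -0.80, -0.41, 0.07 and 0.28 in WT arrays. In this list KO array 14 was again the lowest and KO array 12 the highest, with 0.01, 0.44, 0.28 and -0.44 in KO arrays and -0.42, -0.25, 0.21 and 0.18 in WT arrays.

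Of the other matrix glycoproteins and proteoglycans, 33 of 34 were measured, and the median was 0.12. Past the unadjusted limit 3 were higher and 0 lower, against 3.33% and 1.47% of all genes. These 3 were Fbln1, a basement membrane and elastic fibre protein, at 6.48 ± 0.47 in KO arrays and 5.69 ± 0.32 in WT arrays (SD, n = 4 each), and the microfibril proteins Mfap2 (0.63, SE 0.21) and Mfap4 (0.34, SE 0.14). Hspg2, perlecan, differed by 0.18 (SE 0.33) and Vcan, versican, by -0.75 (SE 0.38). Among 22 of 24 matrix receptors, 2 were higher and 1 lower past the unadjusted limit, against the same shares of all genes. Cd44, the hyaluronan receptor, was at 5.43, 5.78, 6.03 and 5.14 in KO arrays and at 4.90, 4.87, 4.97 and 4.94 in WT arrays. Its groups did not overlap, as for 1.55% of all genes with KO higher (adjusted p = 0.905, limma). Itgav, the integrin alpha chain that binds fibronectin and vitronectin, was at 9.41, 9.95, 8.97 and 8.52 in KO arrays and at 10.02, 10.49, 9.98 and 9.72 in WT arrays, a difference of -0.84 (SE 0.30). Itga9, a receptor for tenascin, differed by 0.45 (SE 0.19), and the collagen receptor Ddr1 by 0.15 (SE 0.38).

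Of the matrix proteases and their activators, 22 of 24 were measured, 0 were past the unadjusted limit in either direction, and the median was -0.04. Mmp14, a membrane-bound collagenase, differed by 0.47 (SE 0.24), Mmp2, the gelatinase it activates, by 0.53 (SE 0.39), Adamts1 by 0.53 (SE 0.34) and the plasminogen activator Plat by -0.40 (SE 0.32). In TGF-beta signalling, a main inducer of matrix genes, all 21 genes were measured, and the median was 0.11. Past the unadjusted limit 2 were higher and 0 lower, against 3.33% and 1.47% of all genes. The signal transducer Smad2 was at 7.06 ± 0.35 in KO arrays and 6.47 ± 0.27 in WT arrays (SD, n = 4 each). The inhibitor Smad7 differed by 0.49 (SE 0.19), the receptor Acvrl1 by 0.35 (SE 0.17), Acta2, smooth muscle actin, by 0.22 (SE 0.38) and Smad4 by -0.25 (SE 0.26).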

How the data were processed

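The members and all gene lists were chosen with earlier results of these data known. Cells were laser-captured from frozen yolk sac sections, RNA was amplified in 2 cycles and hybridised to 1-colour arrays, 1 per replicate, per the labels' protocols. The log2 values of 22626 probe sets were deposited by the authors. GCOS, RMA and affy appear in the submitters' processing notes, with no step tied to them. A score, a p-value and a q-value per probe set were also deposited by the authors. No scanner files were used here, so background flags were not analysed, and precision is limited by how many arrays there are.

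Of the probe sets, 20380 had 1 gene symbol in the platform annotation, 691 several and 1555 none, and the first kind gave 12393 genes, each read from the probe set of highest mean. R 4.3.3 and limma 3.58.1 (lmFit, eBayes) fitted KO minus WT over all genes with no covariate. Single genes had an exact two-sided permutation test over the 70 splits of 8 arrays. On simulated data for this comparison (12393 genes), the fit recovered 63 of 100 planted 2-fold differences and 94 of 100 planted 4-fold ones, with 7 false calls. The simulated noise was independent between genes, and the planted genes were picked at random from all genes. The 63 genes had a median range of 1.34 over the arrays, against 0.87 for all genes, so this recovery need not hold for them. The labels give no batch, and whether pools share a litter across replicates is not stated, so p-values measure the spread between these arrays. All 63 genes were kept without a filter on low values. Values of every array are given for genes at an unadjusted p under 0.05, with groups apart, or among the 3 highest means of their role, and for all Timp genes. Of each pathway list, up to 3 genes of smallest p and the 2 of highest mean are named. Alternatives were quantile normalization, median centring, leaving out dim genes, trend and robust eBayes, array weights, other probe set rules, and leaving out arrays.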

Additional observations from a re-analysis of the deposited data

Results flagged for a closer look

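For each of the 63 genes and each group of 4 arrays, the highest and lowest array were set against Dixon's critical value for the gap to the nearest array as a share of the group's range. Chance sets apart about 1 in 20 groups, and 5 of 126 groups had such an array. Postn had its lowest KO value, 8.95, in KO array 14, where the nearest KO array was at 10.56. Timp1 had its lowest WT value, 5.81, in WT array 3, against 6.21 in the nearest. Lamc1 had its lowest WT value, 5.20, in WT array 7, with the nearest at 5.69. Col9a2 had its highest WT value, 4.07, in WT array 3, with the nearest at 3.90. For Col17a1 the lowest WT value was 3.43 in WT array 5, with the nearest at 3.59.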

How the results depend on the processing

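Under each of 17 alternatives, 8 of which leave out 1 array, 0 of the 63 genes had an adjusted p under 0.05, and the lowest adjusted p of a gene given with every array was 0.346. Against 4 genes higher and 1 lower at an unadjusted p under 0.05, leaving out 1 array gave 1 to 13 higher (13 without KO array 14) and 1 to 2 lower. The shares of all genes in these fits ran from 1.7% to 5.91% higher and from 0.654% to 2.42% lower. Array weights gave 8 higher and 3 lower (8.13% and 3.76% of all genes), the mean over probe sets 2 higher (3.54%), and quantile normalization (2.72%), median centring (2.41%) and the trended robust fit (1.71%) 2 lower each. Without WT arrays 3 and 5 together 0 were higher, and without KO arrays 13 and 14 together 9 were higher and 6 lower (8.05% and 5.33% of all genes). The median difference of the 63 genes ran from -0.02 to 0.18 when 1 array was left out. Of 29 genes given with every array, 17 kept their sign under all alternatives. The other 12 turned, and the cause was not tested. Leaving out 1 array moved Plod2 over -0.24 to 0.46, Fn1 over -0.31 to 0.52, Col5a2 over -0.10 to 0.57, Col4a2 over -0.16 to 0.65, Postn over -0.02 to 0.60, Col9a1 over -0.06 to 0.53, Col6a3 over -0.11 to 0.53, Col3a1 over -0.38 to 0.39 and Col4a5 over -0.34 to 0.24. Plod2 was -0.05 under quantile normalization and Fn1 -0.02 under centring. Array weights gave 0.28 for Col3a1 and 0.11 for Col4a5, and the mean over probe sets -0.03 for Col5a2 and 0.13 for Col4a5. Without WT arrays 3 and 5 the differences were -0.22 for Col1a2, -0.21 for Col5a2, -0.21 for Col4a2, -0.18 for Plod2, -0.28 for Fn1, -0.09 for Col18a1 and -0.28 for Col6a3. Without KO arrays 13 and 14 they were 0.46 for Col3a1, 0.28 for Col4a5 and 0.08 for Cald1. No paired analysis was possible because the groups share no replicate number.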
